A study of Homo sapiens with 12 samples.

Results

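The aminoacyl-tRNA synthetases were followed as mRNAs in FDX2-iKO ES2 cells, which derive from an ovarian carcinoma, at 20% and 3% O2 with and without FDX2. The 35 genes were chosen by symbol. They comprise 19 cytosolic genes, whose symbols end in ARS1 or are EPRS1, FARSA and FARSB, and 16 mitochondrial genes, whose symbols end in ARS2. All 35 were found among the 58735 genes of the count table, each with a single identifier. All 35 also had enough counts to be tested, among 16891 tested genes.

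An aminoacyl-tRNA synthetase joins an amino acid to the tRNAs that carry it, and so supplies translation with its charged tRNAs. Cytosolic and mitochondrial translation use separate synthetases for most amino acids, all encoded in the nucleus, and the mitochondrial enzymes are imported to serve the few proteins made from mitochondrial DNA. GARS1 and KARS1 are exceptions, since each gene supplies both compartments through different transcripts or starts. EPRS1 is a fused enzyme that charges glutamate and proline tRNAs, while FARSA and FARSB are subunits of one phenylalanine enzyme. Several cytosolic synthetases sit in a large multisynthetase complex with the scaffold proteins AIMP1, AIMP2 and EEF1E1. Genes of many cytosolic synthetases are also known targets of ATF4, a transcription factor that is made when uncharged tRNA or mitochondrial stress leads to phosphorylation of eIF2.

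RNA-seq libraries came from 4 conditions with 3 replicates each. In all of them the endogenous FDX2 gene was edited and an FDX2-HA cDNA resistant to that editing was driven by the TRE promoter, so that Doxy kept FDX2 on (+ Doxy) and its withdrawal switched FDX2 off (wo Doxy). The oxygen settings differed in time as well: the 20% O2 cells were grown for 6 days, and the 3% O2 cells were first held at 20% O2 for 4 days and then moved to 3% O2 for 3 more days. Oxygen and culture time therefore cannot be told apart, nor can Doxy itself and FDX2 loss. The study's methods name clone #1 as the source of its results unless stated otherwise, so the replicates are taken as samples of 1 clone. P-values measure the spread between these samples, pooled over the 4 conditions. That spread was unequal. Relative to counting noise, its median over genes was 1.32 without Doxy and 4.54 with Doxy at 20% O2. At 3% O2 it was 3.30 without and 3.98 with Doxy. Libraries without Doxy at 20% O2 thus lay closest together, so statements that conditions did not overlap are easier to meet there.

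Library totals lay between 24958386 and 34313637 counts (median 29621780). FDX2 itself had 2 to 13 counts per library, too few to test, and 70.9% of its exonic bases are shared with other genes, so its loss could not be checked on these counts. Of the markers of epithelial and mesenchymal cells, KRT18 (387 to 566 CPM), KRT8, VIM, FN1 and CDH2 were present in every condition, whereas EPCAM and CDH1 were at or near 0. PAX8 was the only one of 4 ovarian carcinoma or Muellerian markers above trace level (6.07 to 15.1 CPM). The 3 leukocyte and 2 erythroid markers did not exceed 0.154 CPM, and of the 3 endothelial markers CDH5 alone was found (24.7 to 45.1 CPM). With FDX2 loss at 20% O2, KRT18 (log2 fold change −0.55) and VIM (−0.49) were lower and FN1 (0.36) and CDH2 (0.29) higher, and CDH5 was higher with FDX2 loss at 3% O2 (0.49). Their part in the results below was not tested. Levels below are CPM, a gene's counts scaled to its library's TMM-adjusted total. These are bulk measurements, in which fewer cells expressing a gene and less RNA per cell cannot be told apart.

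Cytosolic synthetase mRNAs were far more abundant than mitochondrial ones. Levels of different genes were compared as CPM per kilobase of exon. The length used was that of all annotated exons of a gene merged, not of the transcripts found in these cells. A gene with a long merged length therefore ranks lower. With Doxy at 20% O2, the median over the 19 cytosolic genes was 54.9 CPM per kilobase and that over the 16 mitochondrial genes 7.82. The ranges overlapped, from 6.72 to 64.4 for the cytosolic and from 1.14 to 56.8 for the mitochondrial group. IARS2, the mitochondrial isoleucine enzyme, was the exception in its group. Its length-scaled level was 56.8 ± 3.69 (SD, n = 3), close to the cytosolic median, and the next mitochondrial gene, YARS2, stood at 16.6 ± 1.03 (SD, n = 3). The place of YARS2 depends on the length used. Without it, CARS2 (10460 merged bases) had a mean of 80.5 CPM and YARS2 (2152 merged bases) one of 35.7 CPM. CARS1, the cytosolic cysteine enzyme, was the lowest cytosolic gene in all 4 conditions, with 6.72 ± 0.565 CPM per kilobase at 20% O2 with Doxy (SD, n = 3).

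At the top of the cytosolic group, EPRS1 (64.4 ± 3.72), TARS1 (64.1 ± 3.17), FARSB (63.8 ± 5.58) and SARS1 (63.6 ± 3.32 CPM per kilobase, SD, n = 3) did not differ beyond their spread at 20% O2 with Doxy. After FDX2 loss at 20% O2 the order changed. AARS1, the alanine enzyme, then led with 99.7 ± 3.54 CPM per kilobase, followed by GARS1 with 92.7 ± 1.68 and SARS1 with 91.8 ± 2.20 (SD, n = 3). At 3% O2 the highest gene was TARS1 with Doxy (63.7 ± 0.195) and SARS1 without (63.4 ± 3.99 CPM per kilobase, SD, n = 3). They did not differ beyond their spread from EPRS1 with Doxy (63.6 ± 1.21), and from FARSA (61.1 ± 5.95) and KARS1 (61.0 ± 9.32 CPM per kilobase, SD, n = 3) without. SARS2, the mitochondrial serine enzyme, was lowest of all 35 genes in every condition, at 0.741 to 1.16 CPM per kilobase. Of its exonic bases, 57.0% overlap other genes, which leaves its count uncertain.

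**Figure D1:**
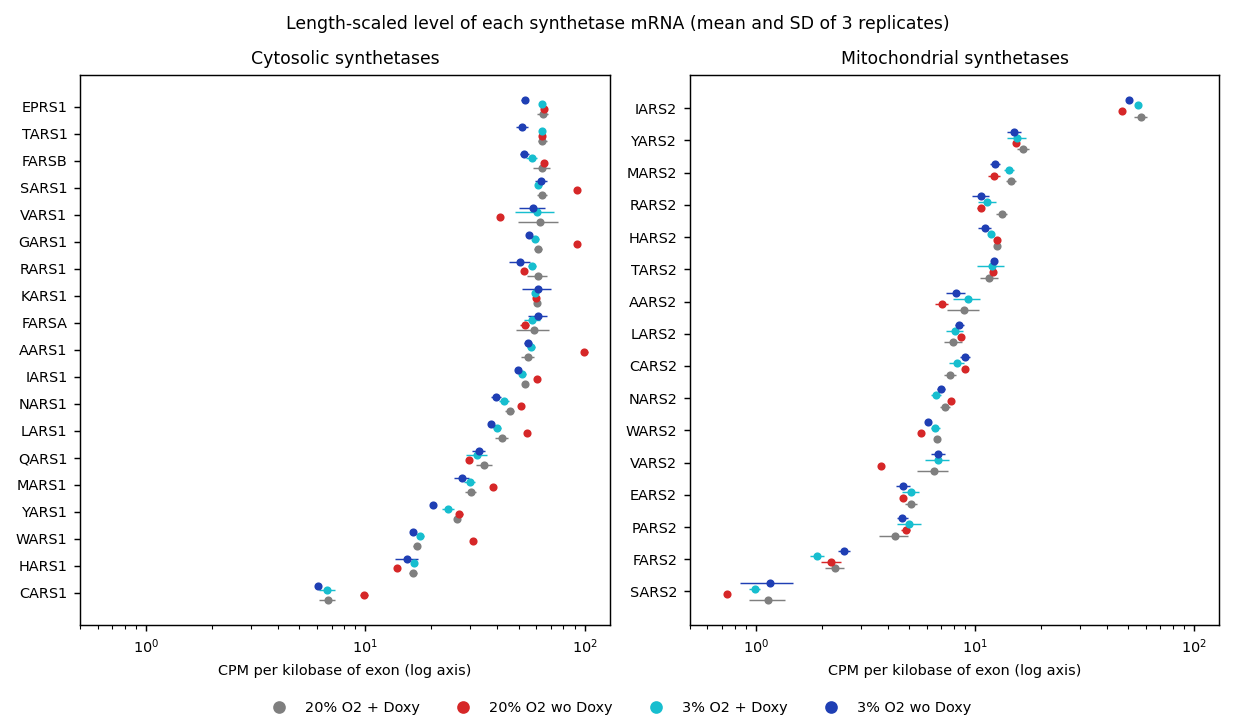
Length-scaled level of each synthetase mRNA in CPM per kilobase of exon on a log axis, with the mean and SD of 3 replicates in each of the 4 conditions. Most cytosolic genes sit above the mitochondrial ones, except that IARS2 reaches 56.8 and CARS1 lies at 6.72 at 20% O2 with Doxy.

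FDX2 loss at 20% O2 raised one set of cytosolic synthetase mRNAs. It also lowered a set of mitochondrial ones, though a correction for GC content, given below, split their calls between both directions. Of the 19 cytosolic genes, 9 were higher without Doxy and 2 lower (edgeR's quasi-likelihood test, adjusted p under 0.05 by Benjamini-Hochberg over all tested genes). The 9 were AARS1, WARS1, GARS1, CARS1, SARS1, LARS1, MARS1, IARS1 and NARS1, and the 2 were VARS1 and HARS1. Over all tested genes 17.6% were higher and 17.7% lower. Log2 fold changes of the cytosolic group ran from −0.61 to 0.86 with a median of 0.035, against 0.0090 over all tested genes. Of the 35 genes, 0 changed by 2-fold or more.

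Of the 16 mitochondrial genes, 1 was higher (CARS2) and 6 were lower (VARS2, SARS2, RARS2, IARS2, WARS2 and MARS2). Their log2 fold changes ran from −0.80 to 0.22 with a median of −0.11. In the sum over each group, the cytosolic synthetases had 4503, 4538 and 4382 CPM with Doxy at 20% O2 and 5061, 5120 and 5005 CPM without. The sums of the mitochondrial synthetases were 795, 784 and 746 CPM with Doxy and 702, 699 and 697 CPM without. At 20% O2 the libraries without Doxy thus lay above all those with Doxy for the cytosolic sum and below all of them for the mitochondrial sum. IARS2 weighs most in the mitochondrial sum, with a mean of 236 CPM with Doxy and 194 CPM without. That sum therefore describes the less abundant mitochondrial genes poorly.

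**Figure D2:**
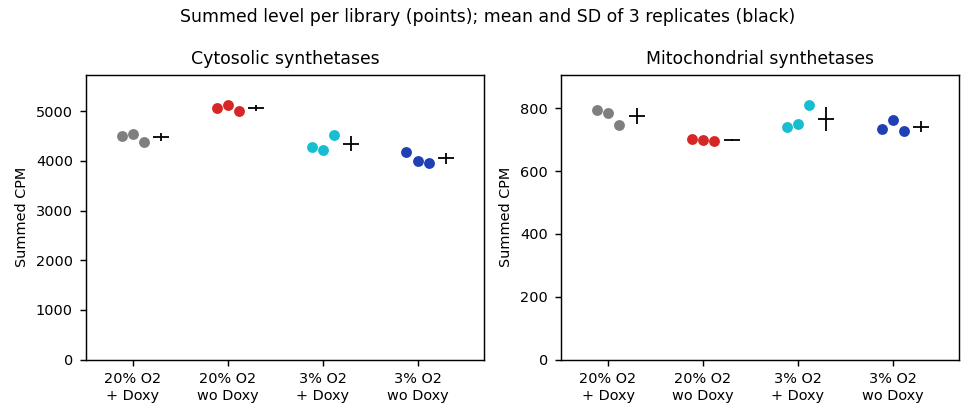
Summed CPM of the 19 cytosolic and the 16 mitochondrial synthetases, with 1 point per library and the mean and SD of 3 replicates in black. At 20% O2 the cytosolic sum is higher without Doxy (5005 to 5120 CPM) than with it (4382 to 4538 CPM), and the mitochondrial sum is lower.

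A correction for the GC content of transcripts moved the split of these calls. With it, 10 cytosolic genes were higher and 4 lower, and 4 mitochondrial genes were higher and 5 lower. Of all tested genes, 26.1% were higher and 20.3% lower in that fit. The excess of lower over higher mitochondrial genes was thus nearly gone. Libraries also differed in the balance between GC-rich and GC-poor genes. The balance was measured on tested genes with a mean log2 CPM above 2, relative to the mean of the 12 libraries. It is the median of the top quartile of GC content minus that of the bottom quartile, with quartiles of all tested genes. On the log2 scale it was 0.37, −0.12 and −0.29 at 20% O2 with Doxy, and −0.22, −0.18 and −0.32 without. Replicate 1 with Doxy stood apart from the other replicates of its condition in this measure.

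**Figure D3:**
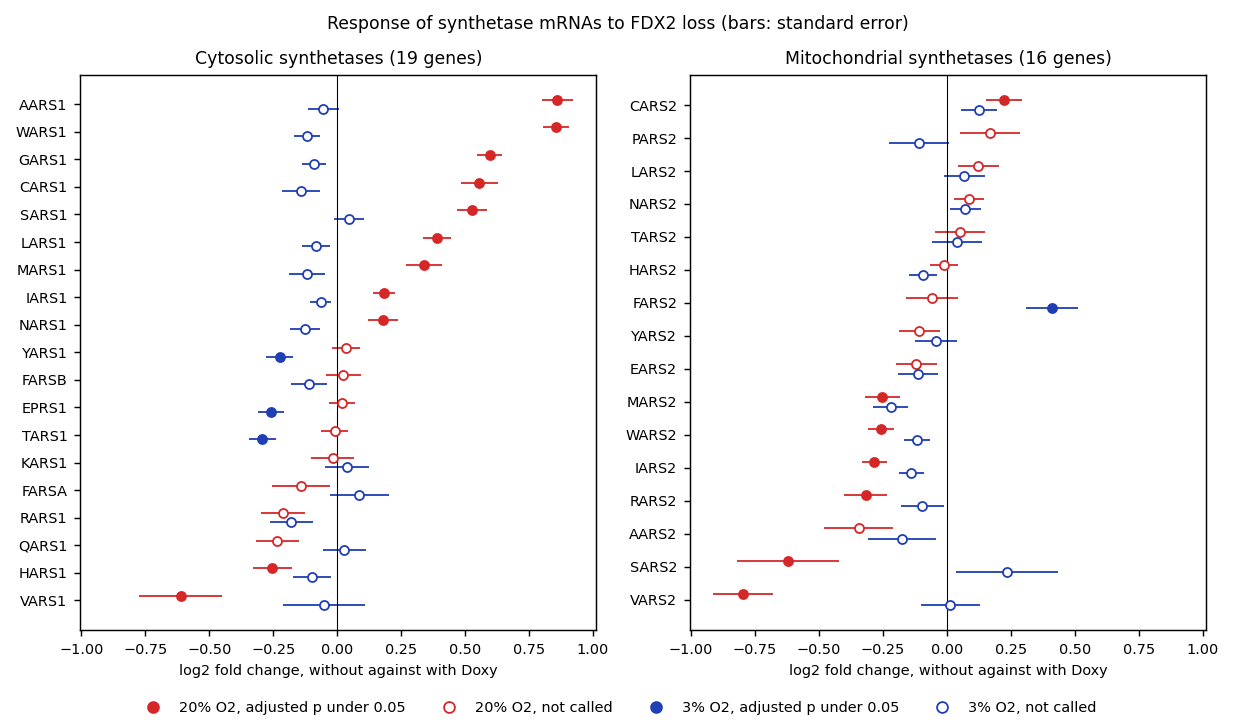
Log2 fold change without against with Doxy for the 19 cytosolic and the 16 mitochondrial synthetases, at 20% O2 (red) and 3% O2 (blue), with standard errors as bars and filled points for an adjusted p under 0.05. At 20% O2, 9 cytosolic genes lie to the right of 0 and are filled, while at 3% O2 no cytosolic gene is called higher.

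AARS1 (ENSG00000090861, GRCh38 chromosome 16, 70252295 to 70289543, minus strand) and WARS1 showed the largest rises, which differed from each other by less than their standard errors. The mRNA of AARS1 stood at 264, 247 and 229 CPM in the 3 replicates with Doxy at 20% O2 and at 450, 463 and 432 CPM without. In the 3% O2 libraries it was 254, 247 and 269 CPM with Doxy and 258, 247 and 237 CPM without. The 3 libraries without Doxy at 20% O2 stood clear of the other 9, which overlapped one another. The log2 fold change at 20% O2 was 0.86 (standard error 0.0612, adjusted p = 2.30e-06 by edgeR's quasi-likelihood test), a 1.82-fold rise.

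WARS1 (ENSG00000140105, chromosome 14, 100333788 to 100376805, minus strand), the tryptophan enzyme and a known interferon-induced gene, behaved alike. It was measured at 110, 112 and 104 CPM with Doxy and 191, 201 and 198 CPM without at 20% O2. At 3% O2 the values were 110, 111 and 118 CPM with Doxy and 105, 101 and 107 CPM without. Again only the libraries without Doxy at 20% O2 were high, and the log2 fold change there was 0.85 (standard error 0.0501, adjusted p = 7.33e-07 by edgeR's quasi-likelihood test). Exons of WARS1 share 10.6% of their bases with genes on the other strand.

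GARS1 (ENSG00000106105, chromosome 7, 30594681 to 30634033, plus strand), which makes the glycine enzyme of both compartments, had 243, 264 and 257 CPM with Doxy and 377, 391 and 387 CPM without at 20% O2. The corresponding 3% O2 libraries had 246, 239 and 257 CPM and 239, 228 and 230 CPM. The rise at 20% O2 was 1.51-fold (log2 fold change 0.60, standard error 0.0471, adjusted p = 4.83e-06 by edgeR's quasi-likelihood test), and the 2 conditions did not overlap. KARS1, the other gene that serves both compartments, had a log2 fold change of −0.02 at 20% O2 and was not called.

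CARS1 (ENSG00000110619, chromosome 11, 3000922 to 3057613, minus strand) had 72.6, 68.4 and 61.4 CPM with Doxy and 96.4, 104 and 97.5 CPM without at 20% O2. In 3% O2 these became 65.4, 62.6 and 73.5 CPM with Doxy and 59.9, 61.1 and 62.0 CPM without. The 20% O2 libraries without Doxy were the highest, with a log2 fold change of 0.56 ± 0.0740 (SE, adjusted p = 0.000189 by edgeR's quasi-likelihood test). SARS1 (ENSG00000031698, chromosome 1, 109213918 to 109238169, plus strand), the serine enzyme, had 251, 252 and 229 CPM with Doxy and 350, 361 and 344 CPM without at 20% O2. Its 3% O2 libraries had 234, 227 and 245 CPM with Doxy and 261, 236 and 233 CPM without. They overlapped with the 20% O2 libraries with Doxy, and the log2 fold change at 20% O2 was 0.53 (standard error 0.0588, adjusted p = 5.57e-05 by edgeR's quasi-likelihood test).

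The remaining rises were smaller. The leucine enzyme LARS1 had a log2 fold change of 0.39, the methionine enzyme MARS1 of 0.34, the isoleucine enzyme IARS1 of 0.18 and the asparagine enzyme NARS1 of 0.18. MARS1 overlaps the exons of DDIT3 on the other strand, where DDIT3 itself rose from 7.96 ± 0.265 to 44.8 ± 0.813 CPM (SD, n = 3) at 20% O2. In all, 13.3% of the exonic bases of MARS1 overlap other genes, and the share of its counts that this touches was not measured. The call of NARS1 was lost under 10 of 21 alternatives, with log2 fold changes between 0.12 and 0.20, and among these are the fits without any 1 of replicates 1 and 2 with Doxy and of the 3 replicates without Doxy at 20% O2. IARS1 lost its call under 1 alternative, the fit without a filter on low counts (adjusted p = 0.171 by edgeR's quasi-likelihood test).

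Among the 7 listed cytosolic enzymes of the multisynthetase complex (EPRS1, IARS1, KARS1, LARS1, MARS1, QARS1 and RARS1), 3 were higher and 0 lower, with a median log2 fold change of 0.018. Of the other 12, 6 were higher and 2 lower, with a median of 0.11. Enzymes of the complex thus included both risers and genes that were not called. QARS1, the glutamine enzyme, lay just outside the threshold at −0.23 (adjusted p = 0.0503 by edgeR's quasi-likelihood test), and 13 of 21 alternatives called it lower.

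VARS1 (ENSG00000204394, chromosome 6, 31777518 to 31795953, minus strand), the cytosolic valine enzyme, moved against most of its group. It had 468, 356 and 316 CPM with Doxy at 20% O2 and 249, 253 and 244 CPM without. With 3% O2 the values were 323, 322 and 454 CPM with Doxy and 317, 407 and 338 CPM without. The 20% O2 libraries without Doxy were the lowest of all, and the log2 fold change was −0.61 (standard error 0.162, adjusted p = 0.0132 by edgeR's quasi-likelihood test). The spread with Doxy was wide (380 ± 78.7 CPM, SD, n = 3). Transcripts of VARS1 have a GC content of 62.6%, and with the GC correction its log2 fold change was −0.34 (adjusted p = 5.19e-06 by edgeR's quasi-likelihood test).

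HARS1 (ENSG00000170445, chromosome 5, 140673904 to 140691862, minus strand), the cytosolic histidine enzyme, was the other one to fall. Its 20% O2 libraries had 131, 134 and 124 CPM with Doxy and 111, 110 and 105 CPM without. At 3% O2 there were 132, 128 and 131 CPM with Doxy and 139, 114 and 113 CPM without. The conditions at 20% O2 did not overlap, and the log2 fold change was −0.25 (standard error 0.0754, adjusted p = 0.0228 by edgeR's quasi-likelihood test). Without replicate 1 or 2 with Doxy, or without replicate 1 or 3 without Doxy, the call was lost (adjusted p up to 0.0728), with log2 fold changes over all alternatives of −0.29 to −0.23. HARS1 lies head to head with HARS2 and shares 8.38% of its exonic bases with genes on the other strand.

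**Figure D4:**
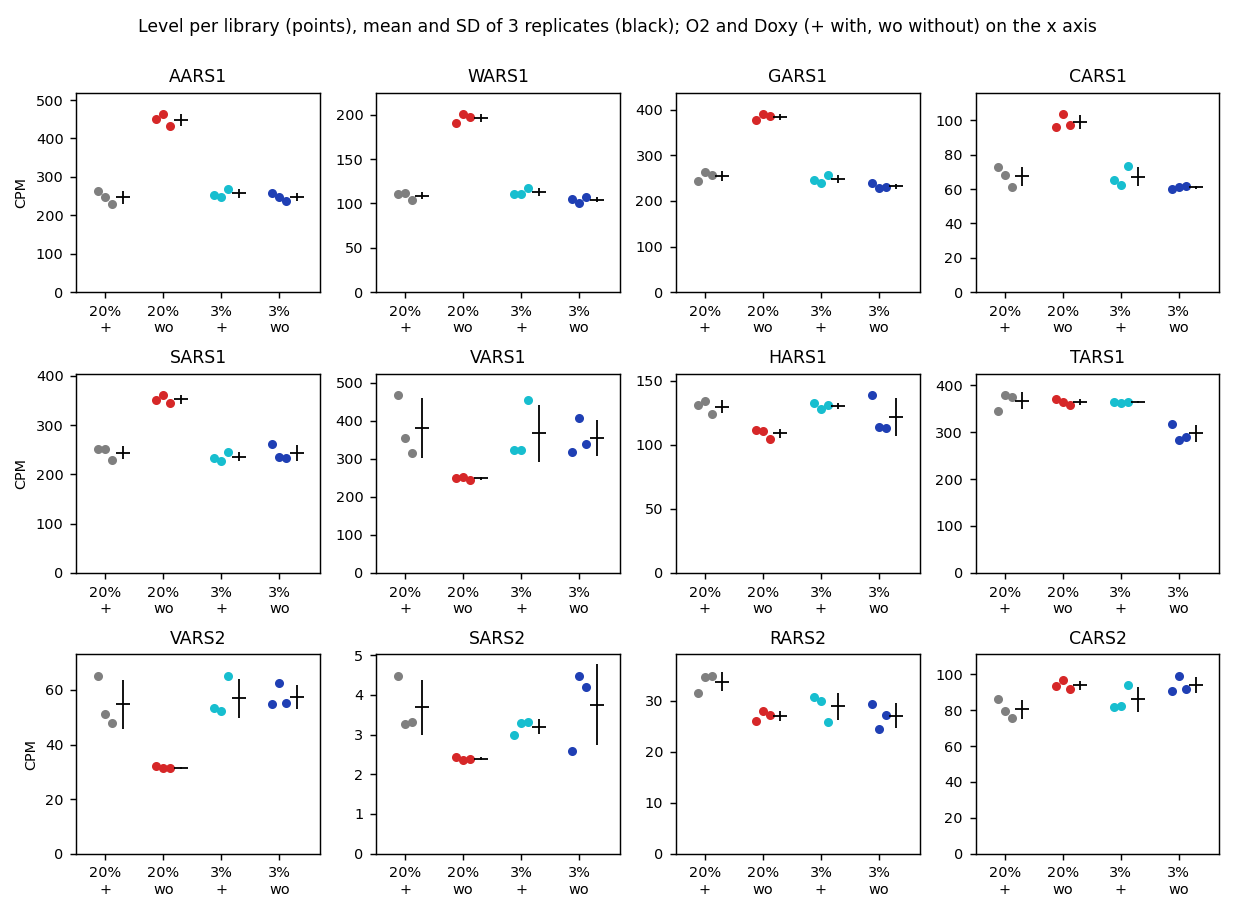
CPM per library (points) of 12 synthetase genes in the 4 conditions, with the mean and SD of 3 replicates in black and an axis from 0 in each panel. The upper-row genes and SARS1 are high without Doxy at 20% O2 alone (AARS1 432 to 463 CPM), while VARS1, VARS2 and SARS2 are low there (VARS2 31.3 to 32.0 CPM).

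VARS2 (ENSG00000137411, chromosome 6, 30908242 to 30926459, plus strand), the mitochondrial valine enzyme, showed the largest fall of the mitochondrial group. It was measured at 65.0, 51.3 and 48.1 CPM with Doxy and 32.0, 31.3 and 31.4 CPM without at 20% O2. In the 3% O2 libraries it was 53.3, 52.2 and 65.2 CPM with Doxy and 54.8, 62.4 and 55.2 CPM without. Low values were thus found without Doxy at 20% O2, below each of the other 9 libraries. The log2 fold change was −0.80 (standard error 0.117, adjusted p = 0.000381 by edgeR's quasi-likelihood test), a 1.74-fold fall. VARS2 has a GC content of 59.3% and, with the GC correction, a log2 fold change of −0.59 (adjusted p = 1.47e-07 by the same test). It shares 22.0% of its exonic bases with GTF2H4 on the same strand.

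SARS2 (ENSG00000104835, chromosome 19, 38915266 to 38930896, minus strand) had 4.48, 3.26 and 3.32 CPM with Doxy at 20% O2 and 2.44, 2.37 and 2.37 CPM without, from 64 to 140 counts per library in all. Its 3% O2 libraries held 2.98, 3.29 and 3.33 CPM with Doxy and 2.58, 4.48 and 4.21 CPM without. The fall at 20% O2 (log2 fold change −0.62, standard error 0.200, adjusted p = 0.0319 by edgeR's quasi-likelihood test) was lost with the GC correction (−0.38, adjusted p = 0.0628). It was also lost without replicate 1 with Doxy and without any 1 of the 3 replicates without Doxy, over log2 fold changes of −0.71 to −0.38 for all alternatives.

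RARS2 (ENSG00000146282, chromosome 6, 87514378 to 87590003, minus strand), the mitochondrial arginine enzyme, had 31.5, 34.6 and 34.9 CPM with Doxy at 20% O2 and 26.0, 27.9 and 27.2 CPM without. With 3% O2 it stood at 30.8, 30.02 and 25.8 CPM with Doxy and 29.3, 24.4 and 27.3 CPM without. The 20% O2 conditions did not overlap (log2 fold change −0.32, standard error 0.0839, adjusted p = 0.0129 by edgeR's quasi-likelihood test), and the call was lost without replicate 1 of the cells without Doxy (adjusted p = 0.0736).

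IARS2 (ENSG00000067704, chromosome 1, 220094102 to 220148041, plus strand) fell from 219, 248 and 242 CPM with Doxy to 194, 194 and 194 CPM without at 20% O2. It had 231, 231 and 232 CPM with Doxy and 213, 209 and 208 CPM without at 3% O2. In both settings the libraries without Doxy were the lower ones, though the test was passed at 20% O2 alone (log2 fold change −0.28 against −0.14 at 3% O2). The difference between these responses, 0.15, was not called (adjusted p = 0.238 by edgeR's quasi-likelihood test). WARS2 (−0.26) and MARS2 (−0.25), the mitochondrial tryptophan and methionine enzymes, also fell at 20% O2.

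CARS2 (ENSG00000134905, chromosome 13, 110641412 to 110713603, minus strand), the mitochondrial cysteine enzyme, was the 1 mitochondrial gene to rise at 20% O2. It stood at 86.1, 79.6 and 75.7 CPM with Doxy and 93.7, 96.6 and 91.6 CPM without. At 3% O2 the levels were 81.6, 82.6 and 94.2 CPM with Doxy and 90.9, 99.2 and 91.7 CPM without. The 20% O2 conditions did not overlap (log2 fold change 0.22, standard error 0.0700, adjusted p = 0.0287 by edgeR's quasi-likelihood test). The call was lost under 7 of 21 alternatives, which include the fits without replicate 2 or 3 with Doxy and without any 1 of the replicates without Doxy, with log2 fold changes over all alternatives of 0.18 to 0.35.

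Promoters were searched for the core of the amino acid response element, which ATF4 with a C/EBP partner can bind. RefSeq promoters on GRCh38.p14, from 250 bases before to 50 after each start, were given for 30 of the 35 genes. The letters searched were TGATGNAA on either strand. They occurred in 7 of 16 cytosolic genes (43.8%), in 1 of 14 mitochondrial genes (7.14%) and in 1217 of 27305 genes with a symbol (4.46%), counting every listed start of a gene. The windows of 28 bases below show the 8 matches, since they set the risers beside the other genes. They are written 5′ to 3′ on the strand of the gene, with the match in capitals.
AARS1: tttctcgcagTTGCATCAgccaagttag
CARS1: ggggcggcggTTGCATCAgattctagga
GARS1: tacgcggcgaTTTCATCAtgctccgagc
IARS1: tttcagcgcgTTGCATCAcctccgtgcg
MARS1: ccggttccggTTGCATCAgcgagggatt
NARS1: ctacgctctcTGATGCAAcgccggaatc
TARS1: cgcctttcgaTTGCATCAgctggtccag
YARS2: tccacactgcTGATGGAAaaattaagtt

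With 0 at the first transcribed base, the match began at −187 in AARS1 (chr16:70289676-70289703, minus strand), −2 in CARS1 (chr11:3057408-3057435, minus), −33 in GARS1 (chr7:30594835-30594862, plus) and −13 in IARS1 (chr9:92293693-92293720, minus). It began at −4 in MARS1 (chr12:57488054-57488081, plus, at one of its listed starts), 14 in NARS1 (chr18:57621805-57621832, minus), 2 in TARS1 (chr5:33440957-33440984, plus) and −197 in YARS2 (chr12:32756077-32756104, minus). Of the 8 matches, 6 have the same letters, TGATGCAA, read on one strand or the other, and GARS1 and YARS2 differ from them. Of the 7 cytosolic genes with a match, 6 were higher after FDX2 loss at 20% O2, and TARS1 was not called (log2 fold change −0.01). WARS1 and SARS1, which also rose, hold no match in this window, and LARS1 has no entry in the table. A match is a description of letters, and whether a factor binds there was not measured.

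The cytosolic gene was set against its mitochondrial counterpart for the same amino acid within each library, in 17 pairs. The ratios are log2 ratios of CPM per kilobase of exon. At 20% O2 the ratio was higher in all 3 libraries without Doxy than in any with Doxy in 10 pairs, lower in 1 and overlapping in 6, with a median change of 0.14. Among single genes at 20% O2, the replicates of the conditions failed to overlap upward in 26.5% and downward in 25.8% of those tested. Pairs that share EPRS1 or FARS2 are not independent.

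The largest shift was in AARS1/AARS2, the alanine pair. Its log2 ratio was 2.49, 2.63 and 2.78 with Doxy at 20% O2 and 3.73, 3.89 and 3.86 without, a mean change of 1.20. The serine pair SARS1/SARS2 went from 5.56, 6.03 and 5.86 to 6.92, 7.003 and 6.93. This pair rests on the low counts of SARS2, whose fall was lost with the GC correction. None of the pair ratios was corrected for GC content. In WARS1/WARS2, the tryptophan pair, the log2 ratio went from 1.35, 1.41 and 1.28 to 2.41, 2.51 and 2.45. In these 3 pairs the mean ratio rose by over 2-fold, and the fitted changes of the members had opposite signs, although AARS2 itself was not called (log2 fold change −0.35, adjusted p = 0.0658 by edgeR's quasi-likelihood test). Valine was different, since VARS1 and VARS2 both fell. Its log2 ratio was 3.32, 3.27 and 3.19 with Doxy and 3.43, 3.49 and 3.43 without. In HARS1/HARS2, the histidine pair and the 1 lower at 20% O2, it went from 0.43, 0.40 and 0.33 to 0.20, 0.13 and 0.10.

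**Figure D5:**
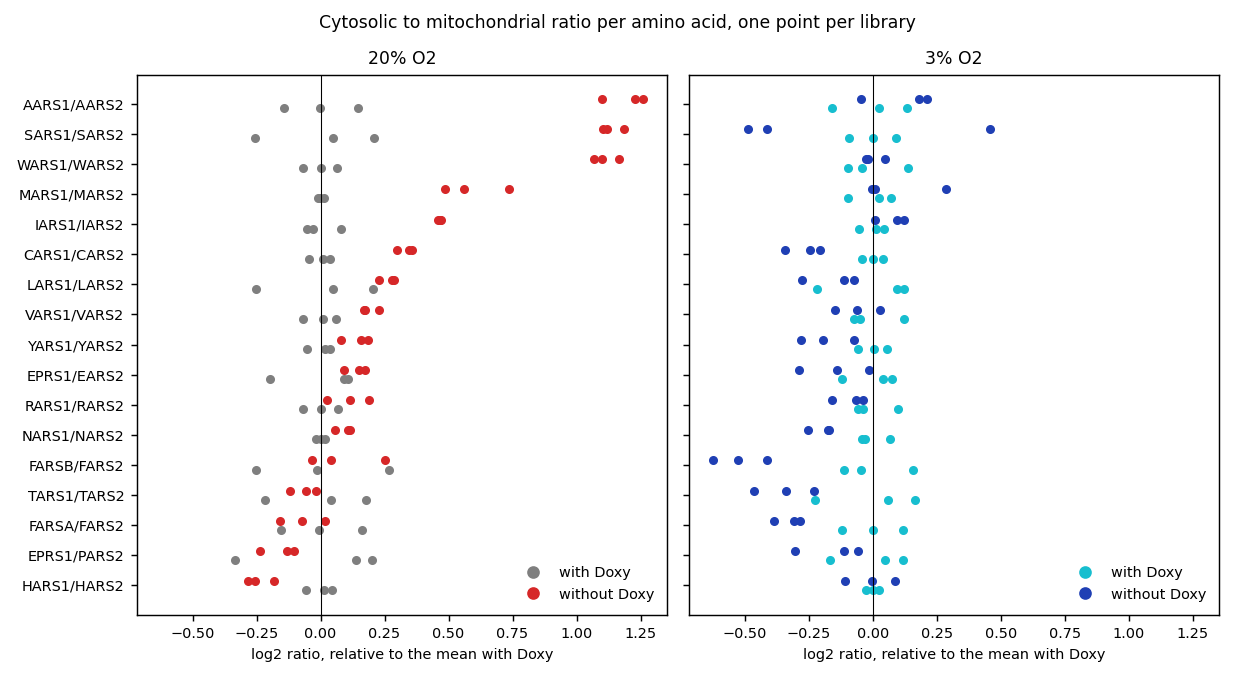
Log2 ratio of the cytosolic to the mitochondrial gene for each of 17 pairs, as 1 point per library, relative to the mean with Doxy at the same oxygen level. Ratios of AARS1/AARS2, SARS1/SARS2 and WARS1/WARS2 lie more than 1 log2 unit to the right without Doxy at 20% O2, and at 3% O2 no pair lies clear to the right.

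With FDX2 loss at 3% O2, 4 of the 35 synthetase mRNAs were called, in a comparison with fewer calls over all tested genes than at 20% O2. Of the 19 cytosolic genes, 0 were higher and 3 lower by edgeR's quasi-likelihood test (0 higher and 4 lower at an unadjusted p under 0.05, and 0 higher and 4 lower by DESeq2). Over all tested genes 4.2% were higher and 3.11% lower. The 3 were TARS1 (−0.29), EPRS1 (−0.26) and YARS1 (−0.23), the enzymes for threonine, for glutamate and proline, and for tyrosine. The median log2 fold change of the cytosolic group was −0.098 and that of all tested genes 0.041. Fitted to the 6 libraries of 3% O2 alone, the 3 calls were lost (adjusted p of 0.0773, 0.0562 and 0.0965 in edgeR's quasi-likelihood test), while the log2 fold changes were −0.32, −0.29 and −0.25. YARS1 lost its call under 9 of 21 alternatives, with log2 fold changes of −0.26 to −0.17, among them the fits without replicate 2 with Doxy at 20% O2 and without any 1 of the 3 replicates without Doxy at 3% O2.

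TARS1 (ENSG00000113407, chromosome 5, 33440696 to 33469539, plus strand) had 365, 363 and 364 CPM with Doxy at 3% O2 and 318, 283 and 290 CPM without. At 20% O2 it stood at 346, 379 and 374 CPM with Doxy and 370, 363 and 358 CPM without. The 3% O2 libraries without Doxy were the lowest (log2 fold change −0.29, standard error 0.0531, adjusted p = 0.00826 by edgeR's quasi-likelihood test). EPRS1 (ENSG00000136628, chromosome 1, 219968601 to 220046658, minus strand) had 343, 343 and 354 CPM with Doxy and 291, 279 and 299 CPM without at 3% O2. Its 20% O2 libraries held 328, 367 and 358 CPM with Doxy and 355, 352 and 360 CPM without. In this gene too, only the 3% O2 libraries without Doxy lay apart from the rest.

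In the mitochondrial group at 3% O2, 1 gene was higher, FARS2 (log2 fold change 0.41, adjusted p = 0.0350 by edgeR's quasi-likelihood test), and 0 were lower (3 at an unadjusted p under 0.05 and 2 by DESeq2). FARS2, the mitochondrial phenylalanine enzyme, had 8.52, 9.82 and 9.25 CPM with Doxy and 12.8, 12.4 and 11.4 CPM without. Its 20% O2 libraries spanned 9.46 to 11.9 CPM and overlapped both. The call was lost under 13 of 21 alternatives, with log2 fold changes of 0.36 to 0.46, and in particular without replicate 2 with Doxy or replicates 1 or 2 without Doxy at 20% O2 and without any 1 of the 6 libraries at 3% O2. With the GC correction 2 mitochondrial genes were higher and 3 lower, where 10.6% of all tested genes were higher and 8.67% lower.

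Of the 17 pair ratios at 3% O2, 0 were higher without Doxy in all libraries, 6 were lower and 11 overlapped, with a median change of −0.15. Single genes at 3% O2 failed to overlap upward in 13.4% and downward in 11.2% of those tested. The largest shift was in FARSB/FARS2, from 5.07, 4.87 and 4.80 with Doxy to 4.39, 4.29 and 4.50 without. In the alanine pair the log2 ratio stayed within 2.48 to 2.85 over the 6 libraries at 3% O2.

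With Doxy, no synthetase was called between 3% and 20% O2. Of the 19 cytosolic and 16 mitochondrial genes, 0 were called in either direction by edgeR's quasi-likelihood test, with 0 higher and 2 lower in each group at an unadjusted p under 0.05 and 0 called by DESeq2. Over all tested genes 1.63% were higher and 0.385% lower. Log2 fold changes lay between −0.15 and 0.057 for the cytosolic and between −0.27 and 0.22 for the mitochondrial group. The GC correction called 1 cytosolic gene lower, QARS1, in a fit with 5.18% of all tested genes higher and 2.31% lower.

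Without Doxy, the levels at 3% O2 differed from those at 20% O2. Of the cytosolic genes 1 was higher, VARS1, and 13 were lower, where over all tested genes 13.9% were higher and 11.9% lower. The cytosolic median was −0.30, with the largest decreases in WARS1 (−0.92), AARS1 (−0.86), GARS1 (−0.73) and CARS1 (−0.70). These comparisons share the libraries without Doxy at 20% O2 with the FDX2-loss comparison at 20% O2. The sums of cytosolic CPM were 4282, 4225 and 4509 with Doxy and 4182, 4003 and 3959 without at 3% O2, below the 5005 to 5120 of the cells without Doxy at 20% O2.

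The GC balance of these libraries did not overlap between the settings, at −0.32 to −0.18 without Doxy at 20% O2 and 0.041 to 0.39 at 3% O2. VARS1 was 0.51 higher on the log2 scale at 3% than at 20% O2 without Doxy (adjusted p = 0.0401 by edgeR's quasi-likelihood test), and 0.16 with a replicate block and the GC correction. Its call was lost under 7 of 21 alternatives (log2 fold changes over all of them 0.16 to 0.58, adjusted p up to 0.145 in edgeR's quasi-likelihood test), namely the block over 12 libraries and the fits without any 1 replicate at 20% O2 or replicate 2 or 3 at 3% O2 of the cells without Doxy, or without replicate 2 with Doxy at 20% O2. In the mitochondrial group 2 genes were higher, VARS2 (0.86) and SARS2 (0.65), and 1 lower, HARS2 (−0.18). The labels do not say that replicate numbers mark a shared batch. The counts above come from the main fit, which has no replicate block. A blocked fit was set beside it because same-numbered libraries deviated together here (correlations 0.18 to 0.49). Differently numbered ones reached 0.23, which overlaps, and in other pairs of conditions same-numbered correlations went down to −0.57. Whether the numbers mark pairs was not tested. With the replicate as a block, fitted to the 6 libraries compared, 1 mitochondrial gene was higher and 0 lower. This was VARS2 (0.85, adjusted p = 0.00291 by edgeR's quasi-likelihood test). Of all genes tested in that fit, 17% were higher and 14.1% lower. The 13 cytosolic genes called lower without the block were also called in it. SARS2 had 0.60 (adjusted p = 0.0959) and HARS2 −0.19 (adjusted p = 0.0795) in that fit. With the block and the GC correction together, 3 mitochondrial genes were higher and 2 lower, where 14.3% of all genes tested were higher and 13.2% lower. HARS2 (ENSG00000112855, chromosome 5, 140691426 to 140699318, plus strand), the mitochondrial histidine enzyme, had 46.0, 48.0 and 46.5 CPM without Doxy at 20% O2 and 44.3, 38.7 and 41.2 CPM at 3% O2. With Doxy it had 46.3, 48.4 and 46.9 CPM at 20% O2 and 44.1, 44.2 and 44.3 CPM at 3% O2. Its libraries at 3% O2 were thus the lower ones with and without Doxy.

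The responses to FDX2 loss were tested against each other as 3% minus 20% O2. Of the cytosolic genes 11 had a lower response at 3% O2 and 0 a higher one by edgeR's quasi-likelihood test (1 higher and 12 lower at an unadjusted p under 0.05, and 0 higher and 12 lower by DESeq2). Of the mitochondrial genes 1 had a higher response, VARS2, and 0 a lower one (3 higher and 0 lower at an unadjusted p under 0.05, and 1 higher and 0 lower by DESeq2). Among all tested genes 3.21% had a higher and 4.08% a lower response. The median difference was −0.28 over the cytosolic and 0.049 over the mitochondrial genes.

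WARS1 and AARS1 had the largest differences, which differed from each other by less than their standard errors. WARS1 had −0.97 (standard error 0.0707, adjusted p = 6.68e-05 by edgeR's quasi-likelihood test), since its log2 fold change went from 0.85 at 20% O2 to −0.12 at 3% O2. AARS1 had −0.92 (standard error 0.0862), CARS1 −0.70 (standard error 0.105) and GARS1 −0.69 (standard error 0.0665). SARS1, LARS1 and MARS1 had differences of −0.48, −0.47 and −0.46. These 7 risers at 20% O2 had log2 fold changes of −0.14 to 0.046 at 3% O2, none of them called in the main fit. Among the alternatives at 3% O2, the GC correction called CARS1 lower (adjusted p = 0.0301 by edgeR's quasi-likelihood test). DESeq2's Wald test called WARS1 lower (adjusted p = 0.0305). EPRS1, TARS1, IARS1 and NARS1 had differences of −0.28, −0.28, −0.25 and −0.31, and 11, 13, 11 and 14 of 18 alternatives, respectively, left them uncalled. MARS1 was left uncalled without replicate 1 without Doxy at 20% O2 and without replicate 2 without Doxy at 3% O2 (adjusted p up to 0.0548 by edgeR's quasi-likelihood test). Of the mitochondrial genes, VARS2 had a difference of 0.81 (standard error 0.164, adjusted p = 0.0151 by edgeR's quasi-likelihood test). With the GC correction 3 mitochondrial genes had a higher response and 2 a lower one, where 8.72% of all tested genes had a higher and 9.57% a lower response.

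Other genes of the pathway were read in the same fit at 20% O2, in which 17.6% of all tested genes were higher and 17.7% lower. None of the 3 scaffold genes of the multisynthetase complex was called in edgeR's quasi-likelihood test (0 higher and 0 lower, with 1 higher at an unadjusted p under 0.05 and 0 by DESeq2). Mitochondria lack a glutamine enzyme of their own and amidate a mischarged tRNA with GATB, GATC and QRSL1. Together with MTFMT, which formylates the initiator tRNA, 2 of these 4 genes were higher, QRSL1 (0.24) and GATB (0.21), and 0 lower (1 at an unadjusted p under 0.05, and 0 by DESeq2, which called 1 higher). Of 6 mitochondrial elongation and initiation factors, 2 were higher, MTIF2 (0.37) and MTIF3 (0.31), and 1 lower, TSFM (−0.44). Cytosolic elongation factors showed 0 calls in the 4 tested of 6 (1 lower at an unadjusted p under 0.05 and 1 lower by DESeq2), as EEF1A2 was too low and EEF1G had 0 counts. The 5 proofreading genes (1 lower) and 2 genes of selenocysteine tRNA synthesis (1 higher, both at an unadjusted p under 0.05) likewise had 0 calls, also by DESeq2.

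Of the 10 listed genes of the amino acid response, 8 were higher and 2 lower at 20% O2, against the same 17.6% and 17.7% of all tested genes, with a median log2 fold change of 1.28. DDIT3 (2.49), a transcription factor induced by ATF4, and ATF3 (2.29) rose most, and ATF4 itself by 0.41. The 2 lower genes were EIF2AK4 (−0.19), the kinase that senses uncharged tRNA, and GCN1 (−0.34), which activates it. At 3% O2, DDIT3 (0.85), ATF3 (0.65) and ATF4 (0.52) were higher and 0 lower (0 also at an unadjusted p under 0.05 and by DESeq2), against 4.2% and 3.11% of all tested genes. In the difference of responses 5 of the 10 were lower, led by ASNS (−2.13) and CHAC1 (−1.90), and 0 higher (1 at an unadjusted p under 0.05 and 0 by DESeq2), against 4.08% and 3.21% of all tested genes. ASNS and CHAC1 had low counts, 21 to 203 and 70 to 369 per library. Of the exonic bases of ASNS, 44.6% overlap another gene on the same strand. ATF4 differed by 0.11 and was not called. Of 7 tested interferon-response genes, 4 were higher and 0 lower at 20% O2, the largest being IFIT3 (1.05) and GBP2 (1.02), while OAS1 and MX1 were too low to test. At 3% O2, 3 of the 7 were higher, led by GBP2 (1.01) and GBP1 (0.65), where WARS1 had a log2 fold change of −0.12. GBP2 and GBP1 had low counts, 25 to 92 and 74 to 210 per library. Any link between these genes and WARS1 was not tested.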

How the data were processed

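Poly(A) RNA of the 12 libraries was sequenced in pairs on a DNBSEQ-T7. Per the labels and the submitters' processing notes, the authors used STAR, featureCounts and GRCh38 and deposited raw counts per gene without normalization. Tool versions and the strand setting are not given in the sources used here. Gene identifiers were those of GENCODE 29.

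Genes were kept by filterByExpr (minimum count 10, minimum total 15), scaled by TMM and fitted with edgeR 4.0.16 (glmQLFit and glmQLFTest, R 4.3.3) on all 12 libraries with 4 condition means and 8 residual degrees of freedom. The common biological coefficient of variation was 16.3%. The 5 comparisons were tested with p-values adjusted by Benjamini-Hochberg over all tested genes and a threshold of 0.05. Alternatives were DESeq2 1.42.0 and its size factors, filters, a stricter threshold, fits to the 6 libraries compared, replicate blocks, a GC correction (lowess, span 0.3) and leaving out each library.

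Members and gene lists were chosen with earlier results of these data known. Values per library are given for the 4 cytosolic and 3 mitochondrial genes with the largest changes among those called in FDX2 loss at 20% O2 and in the difference of responses, for genes called against most of their group, and for the highest and lowest length-scaled gene of each group. FARS2 and HARS2 were added after their values were seen. The main fit has no replicate block. Same-numbered libraries deviated together only between 20% and 3% O2 without Doxy (correlations 0.18 to 0.49). A fit with the replicate as a block is therefore given beside the main fit for that comparison. Differently numbered libraries of these conditions had correlations of −0.47 to 0.23, which overlap those values, and the labels name no shared batch. No column of the count table was left unmapped.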

Additional observations from a re-analysis of the deposited data

Results flagged for a closer look

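The response to FDX2 loss differed between 3% and 20% O2 in 12 synthetases, by the interaction term of edgeR's quasi-likelihood test, at a Benjamini-Hochberg adjusted p under 0.05. As log2 differences, 3% minus 20% O2, the largest were −0.97 in WARS1, −0.92 in AARS1, −0.70 in CARS1 and −0.69 in GARS1. SARS1 had −0.48, LARS1 −0.47 and MARS1 −0.46. Smaller ones were −0.31 in NARS1, −0.28 in EPRS1, −0.28 in TARS1 and −0.25 in IARS1. VARS2 was the 1 mitochondrial gene, with 0.81 in the other direction.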

How the results depend on the processing

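Of the synthetases called, 12 of 18 (FDX2 loss at 20% O2), 0 of 4 (FDX2 loss at 3% O2), 13 of 17 (3% against 20% O2 without Doxy) and 7 of 12 (difference of responses) were called in every alternative fit at the threshold of 0.05. The cause of the changes below was not tested. At 20% O2 the median log2 fold change of the cytosolic genes was −0.0018 without a filter and 0.168 with the GC correction, alone or with the replicate block, and 0.00459 to 0.0705 when 1 library was left out. The mitochondrial calls there numbered 3 at the threshold of 0.01 and 4 to 8 with 1 library left out (4 without replicate 1 without Doxy at 20% O2). At 3% O2 the cytosolic calls numbered 0 in the 6 libraries compared, with or without the replicate block and with block and GC correction, 5 with the GC correction, 1 at 0.01 and 2 to 3 with 1 library left out. The mitochondrial calls at 3% O2 numbered 0 without a filter, in the same fits of 6 libraries and at 0.01, 2 with the strict filter, 3 by DESeq2, 5 with the GC correction and 0 to 3 with 1 library left out. Between oxygen levels with Doxy, the GC correction called 1 cytosolic gene. Without Doxy, the mitochondrial calls numbered 1 without a filter, with either replicate block and at 0.01, 7 with the GC correction, 5 with block and GC correction, and 1 to 3 with 1 library left out (1 without any 1 replicate at 20% O2, or replicate 2 or 3 at 3% O2, of the cells without Doxy). For the difference of responses, cytosolic calls numbered 7 without a filter and with the replicate block, 6 at 0.01 and 6 to 13 with 1 library left out (6 without replicate 1 without Doxy at 20% O2 or replicate 2 without Doxy at 3% O2, and 7 without any 1 of 5 others), and mitochondrial calls 5 with the GC correction, 0 at 0.01 and 1 to 2 with 1 library left out. TARS2 turned to −0.13 between oxygen levels without Doxy under the GC correction (adjusted p = 0.0425 in edgeR's quasi-likelihood test). Replicate numbers entered only alternative fits, as a block, and the labels do not say that they mark a batch. Over all genes, FDX2 loss at 3% O2 called 709 higher and 526 lower, against 145 and 73 in its 6 libraries, 1 and 0 with the block there and 1794 and 1464 with the GC correction. SARS2, with 64 to 140 counts per library, was the member most limited by depth.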
